A study of Mus musculus with 2 samples.

Results

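Mir142, Mir223, Mir150 and Mir342 are microRNA genes named here for their ties to white blood cells and microglia, the resident macrophages of the brain. These 4 genes were taken by name from the 2202 microRNA genes in the deposited count files, and all 4 were found. Small RNA was sequenced from male mouse tissue labelled as a layer of hippocampus, taken at 36 days of age. The strain was B6CASTF1/J, an F1 hybrid of C57BL/6J and CAST/EiJ. The 2 libraries, biological replicates 2 and 1, form 1 group, and no label gives a treatment, a second genotype or another age. Both carry the same donor label but different tissue sample labels, and whether they come from 1 or 2 animals is not stated. The p-values between them therefore compare 2 libraries and no condition. The files give no measure of which cells the reads came from, and in bulk tissue fewer cells of a type and less RNA per cell cannot be told apart.

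MicroRNAs are cut from a hairpin in a longer transcript, and 1 arm or the other of that hairpin then guides a silencing complex to messenger RNAs that pair with bases 2 to 8 of the microRNA, the seed. miR-142 is made in nearly all cells of the blood-forming lineages, microglia included. miR-223 is typical of myeloid cells, above all neutrophils, and is also carried by platelets, while miR-150 is abundant in mature B and T lymphocytes, where it acts on the transcription factor Myb. miR-342 is made from an intron of Evl, which encodes a regulator of actin filaments of the Ena/VASP family, and it is found in leukocytes and microglia and in other cells of the brain as well.

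The 4 genes lie on 4 chromosomes and all on the plus strand (mm10). Mir342 (ENSMUSG00000065436.1) is at chr12:108658620-108658718, in intron 3 of Evl in 4 of its annotated transcripts that span the site, and intron 4 in 1. Mir150 (ENSMUSG00000065495.1) is at chr7:45121757-45121821 and overlaps no other annotated gene. Mir142 (ENSMUSG00000105196.1) is at chr11:87756864-87756927, in intron 1 of the long non-coding host gene Mir142hg. Mir223 (ENSMUSG00000076066.1) is at chrX:96242817-96242926, in the last exon of both overlapping transcripts of the non-coding gene F630028O10Rik.

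The hairpins of Mir342, Mir142 and Mir223 are shown 5′ to 3′ because they span the same positions as the genes that reads were counted in. They come from RefSeq (GRCm38.p6, the assembly also called mm10), plus strand, at the positions given above, with the mature arms in capitals.
Mir342: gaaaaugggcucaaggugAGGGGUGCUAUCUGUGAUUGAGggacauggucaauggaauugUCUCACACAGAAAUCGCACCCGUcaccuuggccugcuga
Mir142: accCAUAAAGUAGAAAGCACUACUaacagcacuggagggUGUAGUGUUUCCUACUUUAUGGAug
Mir223: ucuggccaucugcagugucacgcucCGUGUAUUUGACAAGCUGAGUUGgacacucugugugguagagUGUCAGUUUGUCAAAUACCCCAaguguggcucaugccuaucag
Each of the 3 hairpins holds 2 annotated arms, and the counts are per gene, so the arms were not separated. None of the 3 shared a stretch of 20, 18 or 16 bases with the hairpin of another gene read on its own strand, among 1005 hairpin genes in the table.

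The seeds show how the 4 genes differ in what they could pair with. The 7 mature sequences taken from RefSeq are given 5′ to 3′ with the seed, bases 2 to 8, in capitals, and mmu-miR-150-5p, the arm of Mir150 known to act on Myb, is not among them.
mmu-miR-342-5p: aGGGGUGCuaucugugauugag
mmu-miR-342-3p: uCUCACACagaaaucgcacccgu
mmu-miR-150-3p: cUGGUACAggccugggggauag
mmu-miR-142a-5p: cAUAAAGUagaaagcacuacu
mmu-miR-142a-3p: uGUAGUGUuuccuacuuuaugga
mmu-miR-223-5p: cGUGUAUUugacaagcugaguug
mmu-miR-223-3p: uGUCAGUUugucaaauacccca
No 2 of these sequences share a seed, and none of their seeds was found in another of the 1679 mature microRNAs of the table. In GC content the 7 ranged from 33.3% for mmu-miR-142a-5p to 63.6% for mmu-miR-150-3p. These 7 forms are 21 to 23 bases long, so counts per gene were compared without a correction for length. How evenly the different sequences were captured was not measured.

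Own-strand counts over all microRNA genes came to 5279877 in replicate 2 and 4404040 in replicate 1, which sets the precision of every level below. Levels are given in CPM, counts scaled to 1000000 own-strand counts per library, and the floor that a count of 0 leaves, 3 counts per library, is 0.568 CPM in replicate 2 and 0.681 CPM in replicate 1. Intervals are 95% exact binomial intervals and, like the floor, cover counting error only, since PCR copies of 1 molecule are counted as separate reads. Brain markers were high, and the single-locus markers of liver and heart were far below them. The 7 neuronal genes, Mir128-1, Mir128-2, Mir132, Mir212, Mir137, Mir138-1 and Mir138-2, summed to 48932 CPM in replicate 2 and 42183 CPM in replicate 1. By contrast, the liver gene Mir122 had 27.7 CPM in replicate 2 and 30.2 CPM in replicate 1, and the heart gene Mir208b had 6 and 8 counts. Mir208a, another heart gene, had 3 counts in replicate 2 and 0 in replicate 1. The muscle genes Mir133a-1, Mir133a-2, Mir1a-1 and Mir1a-2 had at most 2 counts, but they come in near-identical pairs whose reads can match several places and then enter no gene's count, so these values say little about muscle. Paired genes among the neuronal ones may lose reads in the same way, which was not measured.

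The 4 genes were all detected in both libraries and spanned more than 2 orders of magnitude. Mir342, the Evl intron gene, was the highest, with counts of 22804 in replicate 2 and 11041 in replicate 1. That is 4319 CPM (4263 to 4375) in replicate 2 and 2507 CPM (2461 to 2554) in replicate 1, a mean of 3413 ± 1281 CPM (SD, n = 2). It ranked 46th of all 2202 genes in replicate 2 and 58th in replicate 1. Mir150 had 5277 counts in replicate 2 and 3663 in replicate 1, and whether its reads came from lymphocytes was not tested. Its level was 999.5 CPM (972.7 to 1027) in replicate 2 and 832 CPM (805 to 859) in replicate 1, a mean of 916 ± 119 CPM (SD, n = 2), at ranks 97 and 102. Of the 4 genes it varied least between the libraries, with a coefficient of variation of 13.0%, against 37.5% for Mir342.

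Mir142, made across the blood-forming lineages, had 444 counts in replicate 2 and 238 in replicate 1. The corresponding levels were 84.1 CPM (76.5 to 92.3) in replicate 2 and 54.0 CPM (47.4 to 61.4) in replicate 1, a mean of 69.1 ± 21.3 CPM (SD, n = 2), at ranks 212 and 219. Mir223, the myeloid gene, was the lowest, with 61 counts in replicate 2 and 14 in replicate 1. These counts correspond to 11.55 CPM (8.84 to 14.8) in replicate 2 and 3.18 CPM (1.74 to 5.33) in replicate 1, a mean of 7.37 ± 5.92 CPM (SD, n = 2), at ranks 305 and 385. Its coefficient of variation was 80.4%, the highest of the 4, against 30.8% for Mir142. In both libraries Mir223 lay below the liver gene Mir122, which had 27.7 CPM in replicate 2 and 30.2 CPM in replicate 1. Which cells the Mir223 reads came from was not tested.

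The order Mir342, Mir150, Mir142, Mir223 held in both libraries. At each step the lower of the 2 library values of the higher gene lay above the higher value of the next gene. The nearest pair was Mir342 and Mir150, with 2507 CPM for Mir342 in replicate 1 and 999.5 CPM for Mir150 in replicate 2. No test of this order across animals was made, as an exact two-sided test on 2 libraries cannot give a p below 0.5.

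**Figure D1:**
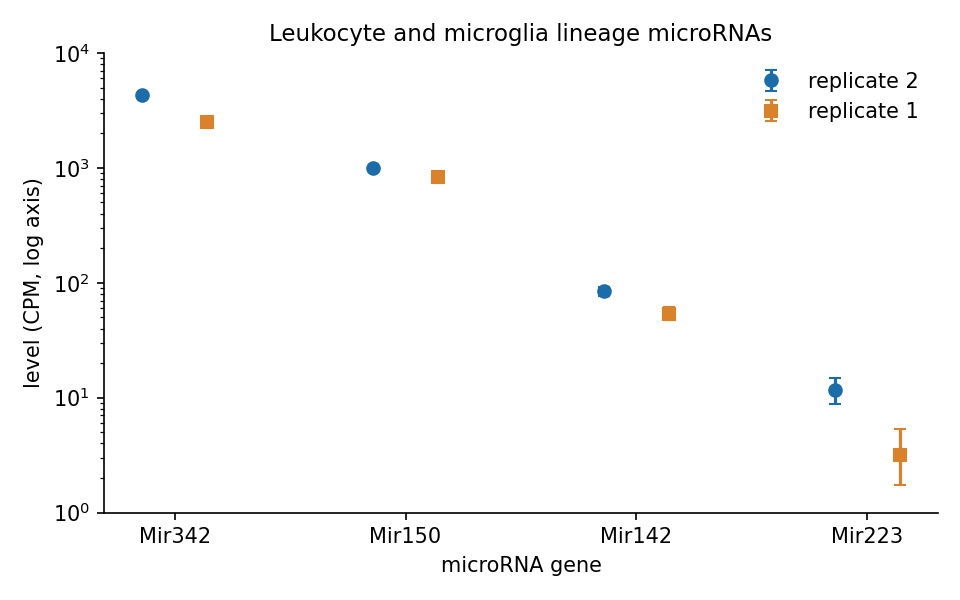
Level of each of the 4 microRNA genes in CPM on a log axis, with circles for replicate 2, squares for replicate 1 and bars for the 95% exact binomial interval, which is hidden by the symbol where narrow. Mir342 stands highest at 4319 CPM in replicate 2 and 2507 CPM in replicate 1, and Mir223 lowest at 11.55 and 3.18 CPM, with the circle above the square for every gene.

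Mir342 made up most of the reads of the 4 genes together. Their sum was 28586 counts in replicate 2 and 14956 in replicate 1, or 0.541% and 0.340% of all own-strand counts. Of this sum Mir342 took 79.8% (79.3 to 80.2) in replicate 2 and 73.8% (73.1 to 74.5) in replicate 1. Mir150 took 18.46% (18.01 to 18.91) in replicate 2 and 24.5% (23.8 to 25.2) in replicate 1. Mir142 held nearly the same share, 1.55% (1.41 to 1.70) in replicate 2 and 1.59% (1.40 to 1.81) in replicate 1, and the intervals overlap. Mir223 stayed under 1% in both, at 0.213% (0.163 to 0.274) in replicate 2 and 0.0936% (0.0512 to 0.157) in replicate 1.

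Ratios of counts within a library need no scaling between libraries, and they show which pairs of the 4 genes changed in proportion beyond counting error. Mir342 had 51.4 times the counts of Mir142 in replicate 2 (46.8 to 56.5) and 46.4 times in replicate 1 (40.8 to 53.0). The ratio in replicate 2 over that in replicate 1 was 1.11, and its interval of 0.940 to 1.30 includes equality. Mir342 had 4.32 times the counts of Mir150 in replicate 2 (4.19 to 4.45) and 3.01 times in replicate 1 (2.90 to 3.13), a change of 1.43-fold (1.366 to 1.504). Mir150 had 11.9 times the counts of Mir142 in replicate 2 (10.8 to 13.1) and 15.4 times in replicate 1 (13.5 to 17.6), a change to 0.772 (0.653 to 0.911). Both pairs with Mir150 thus moved beyond counting error, and the pair of Mir342 and Mir142 did not.

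Every pair with Mir223 also differed beyond counting error, with wide intervals set by its 14 counts in replicate 1. Mir342 had 374 times the counts of Mir223 in replicate 2 (291 to 489) and 789 times in replicate 1 (470.0 to 1443), a change to 0.474 (0.245 to 0.858). The ratio of Mir150 to Mir223 was 86.5 in replicate 2 (67.2 to 113) and 262 in replicate 1 (156 to 479), a change to 0.331 (0.171 to 0.599). For Mir142 and Mir223 it was 7.28 in replicate 2 (5.56 to 9.68) and 17.0 in replicate 1 (9.93 to 31.6), a change to 0.429 (0.217 to 0.795). These intervals hold no spread between animals, and no p-value was computed for the ratios.

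**Figure D2:**
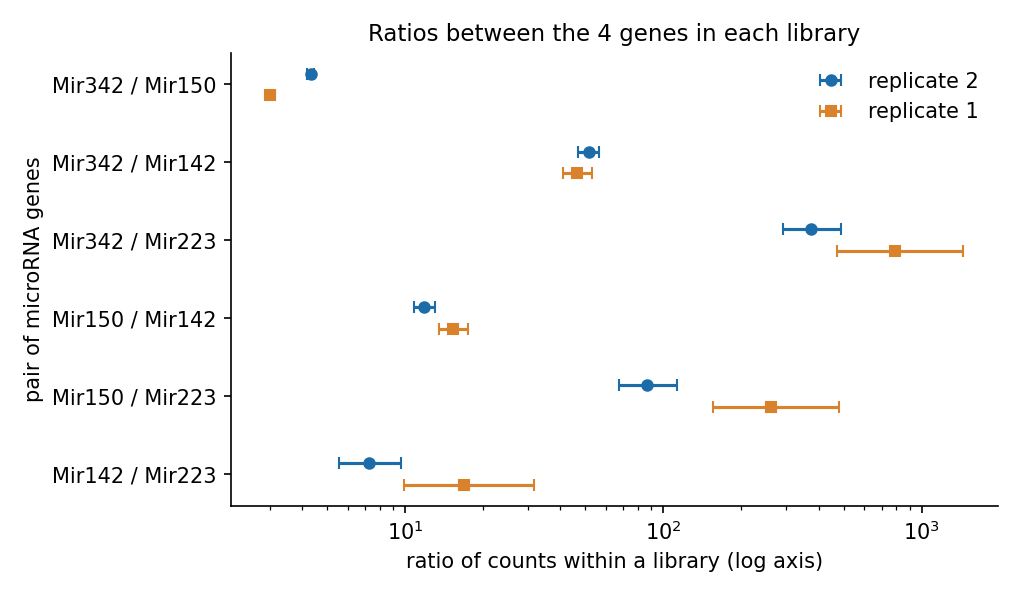
Ratio of counts of each pair of the 4 genes within a library, on a log axis, with circles for replicate 2, squares for replicate 1 and bars for the 95% exact binomial interval. The bars overlap for Mir342 over Mir142 (51.4 and 46.4) and stand apart for Mir342 over Mir150 (4.32 and 3.01), while each ratio over Mir223 is lower in replicate 2.

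All 4 genes were higher in replicate 2 than in replicate 1. In the two-sided exact conditional binomial test across 504 genes with 10 or more counts in total, with Benjamini-Hochberg adjustment and library sizes scaled by TMM, all 4 passed at 0.05. Of all genes tested, 32.5% were called higher in replicate 2 (164 genes), 23.2% lower (117 genes) and 55.8% called in all, so a call in either direction was common. The median log2 ratio of the 4 genes was 0.69, that of all tested genes 0.05, and 53.0% of all tested genes had a positive ratio. Since the 4 genes were chosen with earlier results of these data known, their count gives no evidence of a shared difference.

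Mir223 had the largest log2 ratio of replicate 2 over replicate 1 among the 4, at 1.57 on the log2(CPM + 1) scale (adjusted p = 5.33e-06 in the exact binomial test). Its scaled counts were 3.59-fold higher in replicate 2 (1.99 to 6.95). A higher log2 ratio was found for 30 of the 504 tested genes, or 5.95%. These genes were not matched to Mir223 in level, and its ratio rests on 14 counts in replicate 1. For Mir342 the log2 ratio was 0.77, with scaled counts 1.70-fold higher (1.66 to 1.74) and an adjusted p below 1e-300 in the exact binomial test. Of the tested genes, 94 (18.7%) had a higher log2 ratio than Mir342. Mir142 had a log2 ratio of 0.61 (exact binomial test, adjusted p = 1.52e-07), with scaled counts 1.54-fold higher (1.31 to 1.81), and 114 genes (22.6%) exceeded it. The smallest was that of Mir150, 0.25 (exact binomial test, adjusted p = 3.68e-15), with scaled counts 1.19-fold higher (1.14 to 1.24), and 201 genes (39.9%) exceeded it.

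These calls count reads and hold no spread between animals. With a coefficient of variation of 0.1 between libraries built into the test, Mir342, Mir223 and Mir142 passed and Mir150 did not (adjusted p = 0.414), where 19.0% of all tested genes were called higher. With 0.3, or with the 0.426 that edgeR estimated from these libraries, none of the 4 passed, and 2.58% and 0.397% of all tested genes were called higher. The 0.426 takes the difference between these same 2 libraries as spread. Few calls could therefore remain with it, and it decides nothing for the 4 genes.

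**Figure D3:**
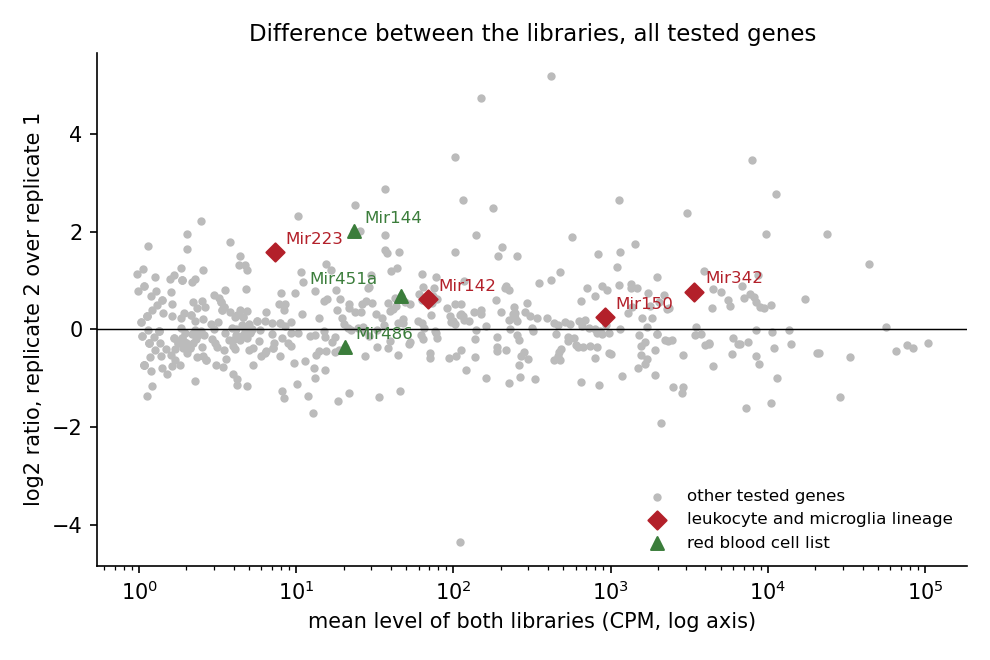
Log2 ratio of replicate 2 over replicate 1 against mean level in CPM (log axis) for the 504 tested microRNA genes. Diamonds mark Mir342, Mir150, Mir142 and Mir223, which lie at log2 ratios of 0.77, 0.25, 0.61 and 1.57 inside the cloud of all genes, and triangles mark the 3 red blood cell genes.

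Red blood cell microRNAs, which mark blood left in a tissue, were also counted in both libraries. Mir451a, Mir144 and Mir486 summed to 599 counts in replicate 2 and 294 in replicate 1, or 113 CPM and 66.8 CPM, and none was at 0. Mir486b, also on this list, was not found under that symbol. Reads that match several places enter no gene's count, so the sum may be too low. In the same exact binomial test, on counting error alone, 2 of the 3 were called higher in replicate 2 and none lower. In that test 32.5% of all tested genes were called higher. At a coefficient of variation of 0.3 that share was 2.58%, and no result for these 3 genes at that setting is given here. Mir451a, which matures in red cells without Dicer, had 304 counts in replicate 2, against 155 in replicate 1 (log2 ratio 0.68, adjusted p = 2.03e-06, exact binomial test). Mir144, made from the same transcript, had 201 and 38 counts (log2 ratio 2.00, adjusted p = 4.92e-21, exact binomial test). Mir486 had 94 and 101 counts (log2 ratio -0.36, adjusted p = 0.117, exact binomial test). The part of blood in the levels of the 4 leukocyte and microglia genes was not tested.

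Set against the red blood cell sum within each library, Mir342 stood at 38.1 times in replicate 2 (35.1 to 41.4) and 37.6 times in replicate 1 (33.4 to 42.3). The ratio in replicate 2 over that in replicate 1 was 1.01, and its interval of 0.877 to 1.17 includes equality. Mir142 had 0.741 of the red blood cell sum in replicate 2 (0.654 to 0.839) and 0.810 in replicate 1 (0.679 to 0.964), a change of 0.916 whose interval of 0.738 to 1.137 also includes equality. Mir223 had 0.102 of it in replicate 2 (0.0769 to 0.133) and 0.0476 in replicate 1 (0.0257 to 0.0812), a change of 2.14-fold (1.158 to 4.208). Mir150 had 8.81 times the sum in replicate 2 (8.09 to 9.60) and 12.5 times in replicate 1 (11.1 to 14.1), a change to 0.707 (0.609 to 0.820). Mir223 and Mir150 thus changed against the red blood cell sum beyond counting error, in opposite directions. The genes in that sum did not move together between the libraries. Their log2 ratios of replicate 2 over replicate 1 were 2.00 (Mir144), 0.68 (Mir451a) and -0.36 (Mir486). The changes, and the intervals of Mir342 and Mir142 that include equality, therefore hold for the sum only. Ratios to its single genes were not computed.

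Vessel wall genes differed between the libraries too. Mir126a, the endothelial microRNA, Mir143 and Mir145a, both typical of smooth muscle, summed to 43835 CPM in replicate 2 and 16250 CPM in replicate 1, and none was at 0. Mir126a had a log2 ratio of 1.95 and Mir145a one of 0.18, both called higher in replicate 2 by the exact binomial test, while Mir143 was called lower at -0.17. On counting error alone, 32.5% of all tested genes were called higher and 23.2% lower, so such calls were common. The part of vessel cells in the difference between the libraries was not tested.

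MicroRNAs linked to inflammation in leukocytes and glia went in both directions. Of 6 such genes, 5 had enough counts to be tested, and 1 was higher, 3 lower and 1 not called in replicate 2, with a median log2 ratio of -0.37 against 0.05 for all tested genes. On the same counting error alone, 32.5% of all tested genes were called higher and 23.2% lower, so calls in both directions were common. Mir146, known today as Mir146a and a feedback inhibitor of innate immune signalling, had 732 CPM in replicate 2 and 634 CPM in replicate 1 (log2 ratio 0.19, adjusted p = 2.74e-07, exact binomial test). Mir21a, induced in reactive glia and many other cells, had 1324 CPM in replicate 2 and 2517 CPM in replicate 1 (log2 ratio -0.94, adjusted p below 1e-300, exact binomial test). Mir155, induced in activated macrophages and lymphocytes, had 28.4 CPM in replicate 2 and 36.6 CPM in replicate 1 (log2 ratio -0.37, adjusted p = 0.0416, exact binomial test).

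Mir146b had 13 and 26 counts (log2 ratio -1.01, adjusted p = 0.0181, exact binomial test), and Mir147 had 9 and 10, with no call. Mir511, made from an intron of the macrophage mannose receptor gene Mrc1, had 4 counts in each library and was not tested. In level, the inflammation-linked sum was 2089 CPM in replicate 2 and 3196 CPM in replicate 1, against 5414 CPM in replicate 2 and 3396 CPM in replicate 1 for the 4 leukocyte and microglia genes. The sum of the 4 genes was thus above the inflammation-linked sum in both libraries. It was below that of the 3 oligodendrocyte genes, 5661 CPM in replicate 2 and 5819 CPM in replicate 1. Sums of unequal numbers of genes rest on their highest members, here Mir342, Mir21a and Mir219a-2. Reads that match several places enter no sum, so lists with paired genes, such as Mir219a-1 and Mir219a-2, may be undercounted.

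**Figure D4:**
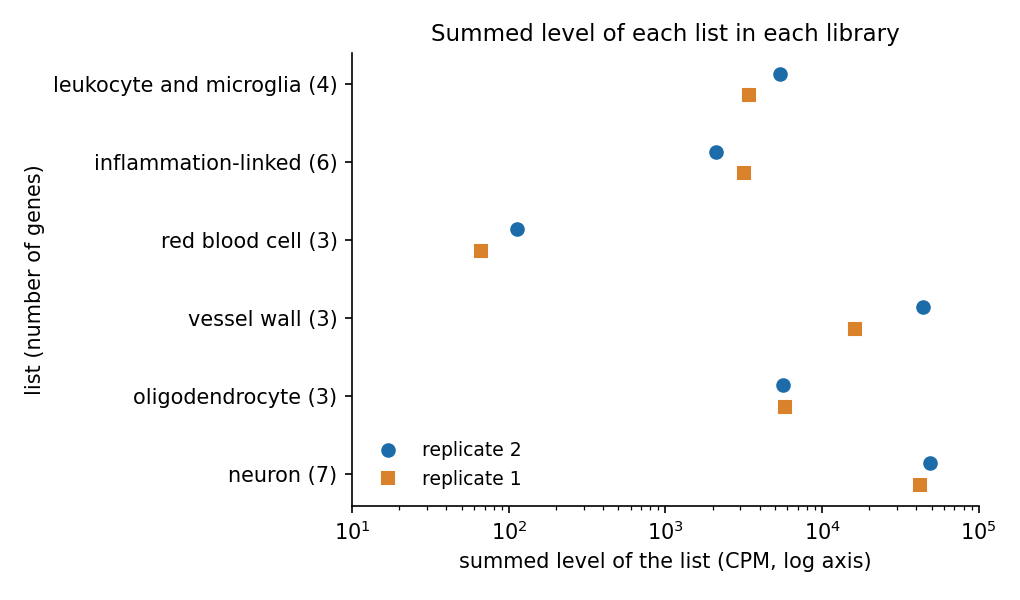
Summed level of each list in CPM on a log axis, with circles for replicate 2, squares for replicate 1 and the number of genes in parentheses. The leukocyte and microglia genes stand at 5414 CPM in replicate 2 and 3396 CPM in replicate 1. That is above the red blood cell genes (113 and 66.8 CPM) and below the neuronal genes (48932 and 42183 CPM). Mir342 makes up 79.8% and 73.8% of the leukocyte and microglia sum. Mir142 alone, at 84.1 and 54.0 CPM, is below the red blood cell sum. Reads that match several places are in none of the sums.

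Among the 4 genes, only Mir142 overlaps an annotated gene on the other strand. Mir142b (ENSMUSG00000065420.2), annotated on the minus strand at chr11:87756841-87756955, covers the whole Mir142 hairpin. Its mature sequence, shown because it lies opposite an arm of Mir142, is given 5′ to 3′ with the seed in capitals.
mmu-miR-142b: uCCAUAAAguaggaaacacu
All 20 bases of it are the reverse complement of a stretch within the 23 bases of mmu-miR-142a-3p. Mir142b had 0 counts on its own strand in both libraries, which allows up to 0.568 CPM in replicate 2 and 0.681 CPM in replicate 1. The 444 and 238 reads on its opposite strand are as many as the counts of Mir142. Counted without regard to strand, both genes were set to 0 in both libraries, as such reads fall in 2 genes.

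The genes nearest to each of the 4 in pattern were found by the Euclidean distance over log2(CPM + 1) in the 2 libraries, across all 2202 genes. Mir142 was nearest to Mir483 (91.9 and 55.9 CPM in replicates 2 and 1, distance 0.13) and Mir6944 (87.3 and 59.5 CPM, distance 0.15). Mir150 was nearest to Mir425 (972 and 903 CPM, distance 0.12) and Mir125b-1 (853 and 863 CPM, distance 0.23). Close neighbours were thus found for both.

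Mir342 lay farther from its nearest genes, Mir30e (5508 and 2372 CPM in replicates 2 and 1, distance 0.36) and Mir219a-2 (3589 and 3433 CPM, distance 0.53). Mir223 was the most distant, with Mir544 at 17.8 and 2.73 CPM (distance 0.61) and Mir200a at 7.20 and 2.50 CPM (distance 0.67). None of the 4 was among the 2 nearest genes of another. Over 2 libraries such a likeness is one of level and of library difference only.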

How the data were processed

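MicroRNA-seq was performed on total RNA of 2 hippocampus tissue samples. The deposited files hold raw counts per microRNA gene, mapped to mm10 and counted against GENCODE M21, per the notes deposited with them. Which aligner made the counts is not given in the sources used here. Which strand each count column holds was read from the values, since the files have no header. Own-strand counts were used. Lines that name no gene took 65.4% of reads in replicate 2 and 64.7% in replicate 1 and stayed out of library sizes and tests. Reads that match several places, 46.5% in replicate 2 and 40.3% in replicate 1, enter no gene's count. Unmapped reads were 13.7% in replicate 2 and 20.2% in replicate 1. The part of these shares in the library differences was not tested. CAST/EiJ variants may affect mapping, which was not tested.

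All 2202 identifiers matched GENCODE M21. Libraries were compared by an exact conditional binomial test, two-sided (scipy 1.17.1), with TMM scaling (edgeR 4.0.16, R 4.3.3; factors 1.006 for replicate 2 and 0.994 for replicate 1), a minimum of 10 counts, 1 CPM added for log2 ratios and Benjamini-Hochberg adjustment over all genes tested. A quasi-likelihood test needs a contrast, and there is 1 group. A spread between libraries was added as a beta mixture of binomials. DESeq2 1.42.0 gave other size factors. The binomial test, with and without added spread, was run on simulated counts as a check of the code. Hairpins were compared as RefSeq gives them, for 3 of the 4 genes.

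The members and lists were chosen with earlier results of these data known. Genes named are the 4 members, the genes of the fixed lists, the 2 genes nearest to each member in pattern, and genes that overlap a member or host it. Alternatives were other scalings, count minimums, a pseudocount of 0.1 CPM, either-strand counts, added spread, the stretch length and single libraries. The software was matplotlib 3.10.9, numpy 2.4.6, pandas 2.3.3 and Python 3.11.15.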

Additional observations from a re-analysis of the deposited data

Results flagged for a closer look

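Mir150 had a few counts on the strand opposite to the gene, in a count column used above only for Mir142b and in no library test. There were 4 in replicate 2 and 5 in replicate 1, above the 3 counts that a count of 0 allows. They made up 0.0757% of the reads on both strands in replicate 2 (95% exact binomial interval 0.0206 to 0.194) and 0.136% in replicate 1 (0.0443 to 0.318). Mir342, Mir142 and Mir223 had 0 counts on the opposite strand in both libraries. No annotated gene overlaps Mir150 on either strand, and the source of these reads was not tested.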

How the results depend on the processing

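The 4 genes kept a higher level in replicate 2 under every setting that gave a value, with log2 ratios of 0.63 to 0.82 for Mir342, 0.11 to 0.30 for Mir150, 0.48 to 0.63 for Mir142 and 1.53 to 1.81 for Mir223. Added spread between libraries ended calls and left the log2 ratios as they were. With a coefficient of variation of 0.1, Mir150 (0.25, adjusted p = 0.414) was no longer called, and with 0.3 none of the 4 was: Mir342 at 0.77, Mir150 at 0.25, Mir142 at 0.61 and Mir223 at 1.57 had adjusted p of 0.888, 1.0, 0.972 and 0.265. With the 0.426 that edgeR estimated, a value chosen after seeing the data, each had an adjusted p of 1.0. Over all genes, 149 were called at 0.1 (96 higher, 53 lower in replicate 2), 14 at 0.3 (13 and 1) and 3 at 0.426 (2 and 1), against 281 without added spread. The 0.426 was taken from the tested difference itself, so few calls could remain with it. A minimum of 100 counts moved the scaling by -0.13 on the log2 scale, called 122 genes higher and 130 lower, and left out Mir223. With either-strand counts the level of Mir142 was 0 CPM, because reads in 2 overlapping genes are set aside there, and its ratios could not be computed. Either-strand counts and TMM moved the other levels and ratios by less than their spread, and stretches of 16 and 18 bases gave the same 0 shared genes. With 1 library left out no library test could be made, and the levels are those of the single library. That of Mir223 is then 11.55 CPM without replicate 1 and 3.18 CPM without replicate 2, against a mean of 7.37 CPM, so it moves 1.57 and 2.32 times, and the other 3 by at most 1.36 times. Mir223 rests on 14 counts in replicate 1.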
